A study of Mus musculus with 24 samples.

Results

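The genes described here are 10 markers by which stromal cells of fat tissue are recognised: Pdgfra, Pdgfrb, Dpp4, Pi16, Clec3b, Icam1, Zfp423, Ly6a, Cd34 and F3. They were taken by name from the 41388 genes of the deposited tables, as markers of preadipocytes and stromal fibroblasts, and all 10 passed the filter on low counts that left 19717 genes for testing. RNA was sequenced from inguinal white fat, the subcutaneous pad of the groin, of male mice (24 libraries). All mice carried floxed alleles of Nr3c2, the mineralocorticoid receptor gene (MRflox/flox). Control mice had no Cre, and FMRKO mice (fat-specific mineralocorticoid receptor knockout) carried AdipoqCre. This Cre is driven by the adiponectin promoter and is directed at fat cells, not at stromal cells. Of the markers, Zfp423 is also expressed by mature fat cells. Each genotype was sampled in 3 conditions, chow, a high-fat diet (HFD) and treatment with corticosterone, which is the chief glucocorticoid in mice, giving 6 groups of 4 libraries. Corticosterone dose and duration, diet composition and duration, any vehicle and the age of the mice were not given in the sources read, and chow served as the reference for both treatments. A leading number stands in the titles of 8 of 8 chow libraries and of 0 of the other 16. If that form marks a batch, it cannot be told apart from either treatment.

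Fat pads grow partly by the commitment of stromal cells to preadipocytes, which then fill with lipid. In mouse subcutaneous fat, DPP4-positive interstitial progenitors, which also carry PI16 and CLEC3B, are described as giving rise to ICAM1-positive preadipocytes and to CD142-positive cells. CD142 is tissue factor, the product of F3. PDGFRA, LY6A (Sca-1) and CD34 are surface proteins used to sort these cells together, PDGFRB marks preadipocytes and the mural cells of vessels, and ZFP423 is a zinc-finger transcription factor of preadipocyte commitment that mature white adipocytes also express.

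Nr3c2, the targeted gene, did not pass the test between genotypes in any condition. Its CPM (read counts scaled to library size, here with the trimmed mean of M values, TMM) was 12.7 to 15.6 in FMRKO and 18.5 to 24.9 in control libraries on HFD, and 7.73 to 12.2 against 14.1 to 18.4 with corticosterone, so these groups did not overlap. On chow the ranges overlapped, at 11.3 to 25.8 against 17.6 to 28.7, and the mean FMRKO effect over the 3 conditions was a log2 fold change of -0.49 ± 0.11 (SE) with an adjusted p of 0.287 in edgeR. Counts were taken over the whole gene and the whole pad, so reads from outside the floxed part and from other cells were included. Library totals ran from 17925109 to 40427675 counts. Transcripts of neighbouring tissue varied between pads: in 6 chow and HFD libraries (chow FMRKO 1 and 3, HFD control 1 and 4, HFD FMRKO 1 and 4) the summed CPM of 19 lymphocyte genes was 352 to 1400, against 23.8 to 56.5 in the other 10. The summed CPM of 17 skeletal muscle genes reached 28320 in chow FMRKO 5 and 3898 in corticosterone control 2.

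Per kilobase of exon, Clec3b and Ly6a were the most abundant of the 10 transcripts in chow control libraries and Dpp4 and Icam1 the least. Clec3b, which encodes the secreted lectin tetranectin, had a level of 231 ± 67.8 RPKM (CPM divided by exon length in kilobases, TMM-normalised, mean ± SD, n = 4). Ly6a followed at 117 ± 30.7 RPKM, Cd34 at 45.3 ± 16.5 and Pi16, a peptidase inhibitor of fibroblasts, at 31.3 ± 16.8. The receptors Pdgfrb and Pdgfra lay close together at 28.2 ± 4.24 and 26.8 ± 5.32 RPKM, a difference smaller than their SD, and F3 lay at 19.99 ± 3.003. Zfp423 had 16.9 ± 3.96 RPKM, the eighth of the 10, above Dpp4 at 8.05 ± 3.88 and Icam1 at 6.41 ± 0.72. With corticosterone the order in control libraries was different for Zfp423, which at 35.7 ± 1.36 RPKM stood below only Clec3b at 94.4 ± 13.1 and Ly6a at 58.3 ± 11.8. Dpp4 was then the least abundant, at 2.46 ± 0.20 RPKM. In the deposited tables (GRCm38) plus-strand genes included Pdgfra at chr5:75152291-75198204, Pi16 at chr17:29318877-29329413, Clec3b at chr9:123150946-123157430, Icam1 at chr9:21015960-21028797, Cd34 at chr1:194938821-194961292 and F3 at chr3:121723537-121735052. The minus-strand genes were Dpp4 at chr2:62330073-62412231, Zfp423 at chr8:87661810-87959595 and Ly6a at chr15:74994877-74998031. Ly6a has close relatives in the Ly6 cluster, and no source read here says how reads that fit several of them were counted, which leaves its level uncertain.

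The 250 bases upstream of the start sites are shown for Zfp423 and F3, higher with corticosterone, and for Pdgfra, Dpp4 and Icam1, lower. They come from the RefSeq table of promoters on GRCm38.p6, which matched 7 of the 10 members; Pdgfrb, Clec3b and Ly6a were not matched. Each is written 5′ to 3′ on the strand of the gene, with matches to the searched letters in capitals, on either strand. The searched patterns, each on both strands, were the full glucocorticoid response element, an inverted repeat of AGAACA around any 3 bases; AGAACA alone, which any full element also holds; TTCNNNGAA, a site of interferon-activated STAT factors; and GGGCGG, the GC box.
Zfp423 (chr8:87959596-87959845, minus strand): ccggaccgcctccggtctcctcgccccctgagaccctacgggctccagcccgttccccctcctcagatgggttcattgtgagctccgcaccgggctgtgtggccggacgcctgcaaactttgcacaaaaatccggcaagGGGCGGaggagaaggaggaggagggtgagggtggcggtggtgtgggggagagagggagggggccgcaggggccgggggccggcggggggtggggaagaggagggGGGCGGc
F3 (chr3:121723287-121723536, plus strand): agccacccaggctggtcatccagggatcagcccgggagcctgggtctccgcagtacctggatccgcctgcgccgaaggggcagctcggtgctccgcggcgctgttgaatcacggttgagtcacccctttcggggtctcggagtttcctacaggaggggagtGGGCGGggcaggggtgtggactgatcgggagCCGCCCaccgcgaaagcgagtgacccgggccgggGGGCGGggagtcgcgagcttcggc
Pdgfra (chr5:75152001-75152250, plus strand): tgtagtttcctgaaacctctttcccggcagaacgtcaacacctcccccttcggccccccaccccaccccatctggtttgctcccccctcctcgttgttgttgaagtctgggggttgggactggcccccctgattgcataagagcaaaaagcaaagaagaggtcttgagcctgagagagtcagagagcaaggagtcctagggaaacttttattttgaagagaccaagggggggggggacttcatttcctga
Dpp4 (chr2:62412232-62412481, minus strand): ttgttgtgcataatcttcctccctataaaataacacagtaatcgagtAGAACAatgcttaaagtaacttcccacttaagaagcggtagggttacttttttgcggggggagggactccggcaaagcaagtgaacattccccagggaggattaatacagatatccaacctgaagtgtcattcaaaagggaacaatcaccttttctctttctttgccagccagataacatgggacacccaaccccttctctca
Icam1 (chr9:21015690-21015939, plus strand): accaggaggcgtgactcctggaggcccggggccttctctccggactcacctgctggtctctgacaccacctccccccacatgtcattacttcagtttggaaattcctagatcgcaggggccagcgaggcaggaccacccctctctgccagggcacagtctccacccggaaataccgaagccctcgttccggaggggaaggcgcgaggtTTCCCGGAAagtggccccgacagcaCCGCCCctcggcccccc
GC boxes stood at 3 places upstream of F3 (first bases 89, 58 and 24 before the start) and at 2 upstream of this start of Zfp423 (111 and 7), and 32.7% of all 32851 promoter windows of this length hold one. The Icam1 window holds 1 GC box and 1 TTCNNNGAA, at bases 42 to 34 before the start, a pattern found in 7.02% of windows. AGAACA lay upstream of Dpp4, at bases 203 to 198, and of Pi16, at bases 27 to 22, and is in 16.1% of windows. The full element was in 0 of the 7 matched members and in 0.00913% of all windows. The windows of Pdgfra and Cd34 held none of the searched patterns. Cd34 was also lower with corticosterone, and its window is not shown.

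Corticosterone went with lower transcript levels of 7 of the 10 markers in control mice and of 6 of the 10 in FMRKO mice. Zfp423 and F3 were higher in both genotypes. In control mice, 9 of 10 markers passed an adjusted p of 0.05 (edgeR quasi-likelihood test, Benjamini-Hochberg over all genes), where 42.9% of all genes tested did, 22.7% lower and 20.2% higher. In FMRKO mice, 8 of 10 passed, where 41.1% of all genes did, 20.9% lower and 20.2% higher. The median log2 fold change of the 10 markers was -1.05 in control and -0.72 in FMRKO mice, against -0.12 and -0.11 over all genes tested. The 6 markers lower in both genotypes were Pdgfra, Pdgfrb, Dpp4, Clec3b, Icam1 and Cd34, Ly6a was lower in control mice, and Pi16 passed in neither. The 4 corticosterone and 4 chow libraries did not overlap for 6 of 10 markers in control mice (41.9% of all genes) and for 5 of 10 in FMRKO mice (37.3% of all genes). In a bulk sample, fewer cells of a type and less RNA per cell cannot be told apart. The labels do not say that the libraries of a group are separate animals, so what the p-values weigh is the spread among libraries, which may be technical.

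HFD moved fewer of the markers. In control mice 2 of 10 passed, both lower (Pdgfra and Clec3b), where 29.2% of all genes tested passed, 13.9% lower and 15.3% higher. In FMRKO mice 2 of 10 passed, Pdgfra lower and Zfp423 higher, where 24.4% of all genes did, 9.18% lower and 15.2% higher. The marker count in control mice was 4 with DESeq2 (6457 genes called) and 5 with lymph node and muscle scores as covariates (6607 genes called). It was also 4 without chow control 1 or corticosterone FMRKO 2, and in FMRKO mice it was 4 without HFD FMRKO 4 and 1 without HFD FMRKO 3. Over all fits that left out 1 library, the genes called moved too, between 4353 and 5974 in control mice. In FMRKO mice they moved between 3351 and 5186. HFD and chow libraries did not overlap for 1 of 10 markers in control mice, Pdgfra (23.2% of all genes), and for 0 of 10 in FMRKO mice (22.4%). Comparisons of HFD and of corticosterone with chow share the chow libraries of a genotype.

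**Figure D1:**
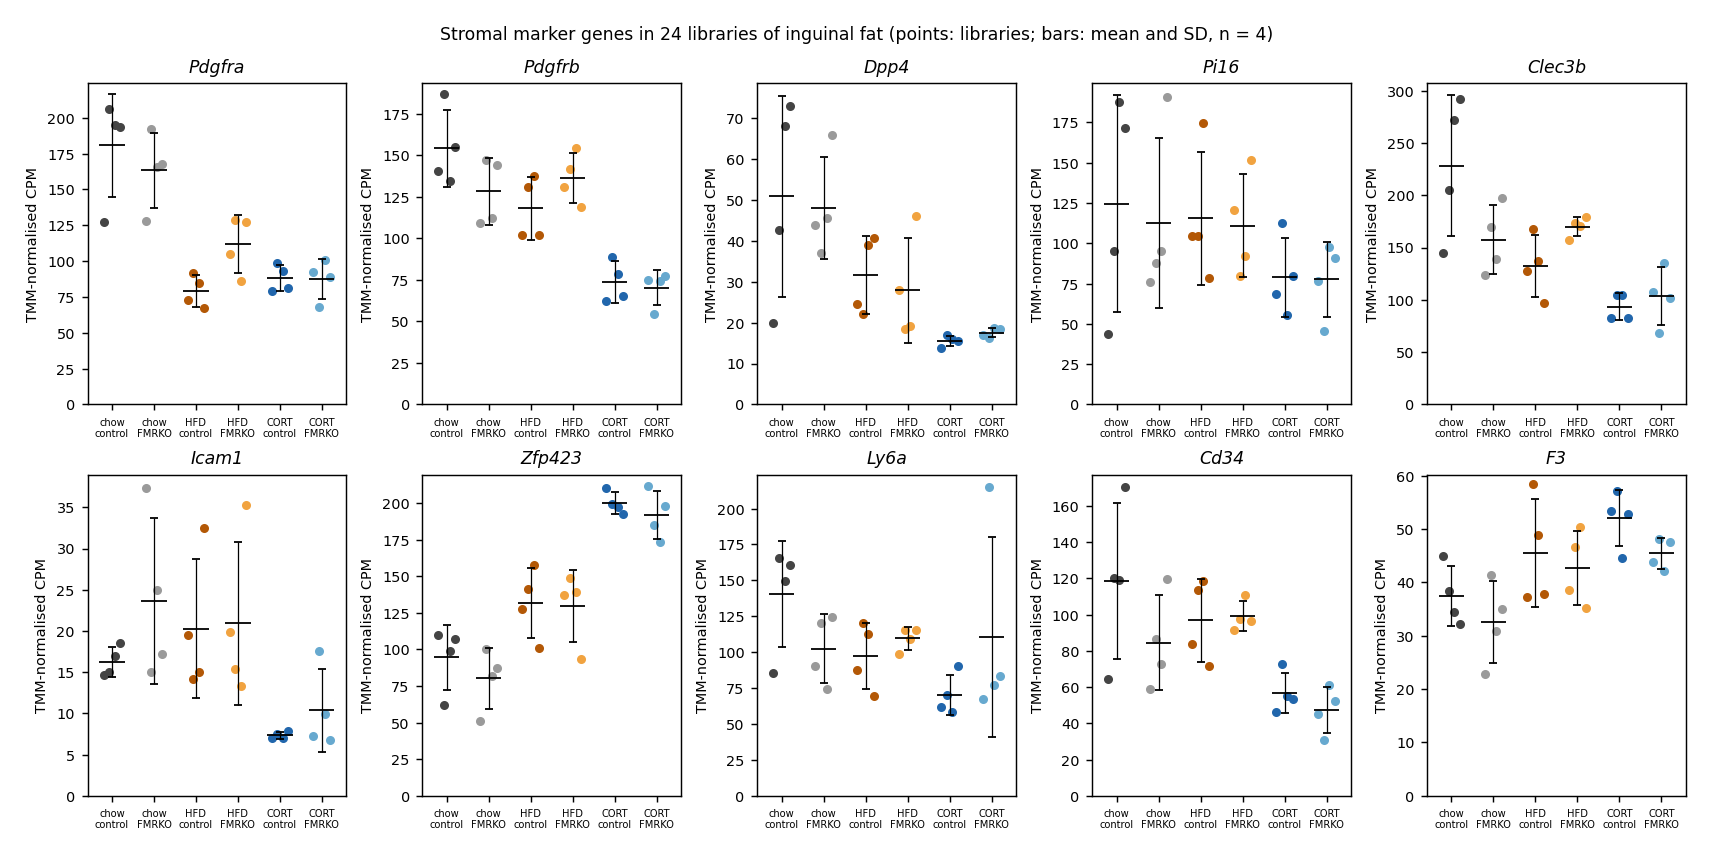
TMM-normalised CPM (vertical axis, from 0) of each of the 10 markers in the 24 libraries, by group on the horizontal axis (CORT: corticosterone). Points are libraries and bars are mean and SD of 4. The 8 corticosterone libraries lie below all 8 chow libraries for Pdgfra, Pdgfrb and Dpp4 and above them for Zfp423.

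Of the receptors for platelet-derived growth factor, Pdgfra was lower with both treatments and Pdgfrb with corticosterone. Pdgfra, the receptor tyrosine kinase found on fibroblasts and adipocyte progenitors, had 128, 206, 195 and 194 CPM in the 4 chow control libraries and 128, 192, 166 and 167 in the chow FMRKO libraries. With corticosterone it had 79.3, 98.6, 93.4 and 81.6 CPM in control and 92.3, 68.3, 101 and 88.7 in FMRKO libraries. All 8 corticosterone libraries were lower than all 8 chow libraries. The log2 fold change was -1.03 ± 0.16 (SE) in control mice, a 2.05-fold lower level (adjusted p = 4.8e-05, edgeR), and -0.90 ± 0.16 in FMRKO mice (adjusted p = 2.3e-04). On HFD the control libraries had 72.9, 92.0, 84.7 and 67.5 CPM, again below all chow control libraries, a log2 fold change of -1.19 ± 0.16 (adjusted p = 2.2e-05). The HFD FMRKO libraries had 105, 128, 86.4 and 128 CPM, which overlapped chow FMRKO at its lowest library, with a log2 fold change of -0.55 ± 0.16 (adjusted p = 0.017). That last call did not hold without chow FMRKO 2 or without HFD FMRKO 3 (edgeR adjusted p 0.051 to 0.058). Corticosterone and HFD levels of Pdgfra did not differ past the threshold in control mice (0.15 ± 0.16, adjusted p = 0.515, 95% interval -0.18 to 0.49).

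Pdgfrb, the related receptor of preadipocytes and mural cells, had 141, 187, 135 and 155 CPM in chow control libraries and 62.3, 89.1, 78.8 and 65.2 with corticosterone. In FMRKO mice the values were 109, 147, 113 and 144 CPM on chow and 75.0, 54.8, 74.2 and 77.3 with corticosterone. Again no corticosterone library reached the chow range. The log2 fold changes were -1.06 ± 0.15 in control (adjusted p = 1.4e-05, edgeR) and -0.87 ± 0.15 in FMRKO mice (adjusted p = 1.3e-04). On HFD its range was 102 to 137 CPM in control and 119 to 154 in FMRKO libraries, which overlapped chow. The HFD effect was -0.39 ± 0.15, adjusted p = 0.055 in control and 0.09 ± 0.15, adjusted p = 0.708 in FMRKO mice. Without any 1 of 8 single libraries the control value passed the threshold (edgeR adjusted p 0.026 to 0.049): chow control 4, HFD control 2 or 3, HFD FMRKO 2 or 3, corticosterone control 1 or 2, or corticosterone FMRKO 2. It also passed without the muscle-rich libraries (-0.47, edgeR adjusted p = 0.032), but not without the lymph node-rich libraries (-0.17, adjusted p = 0.460). Lymph node and muscle scores as covariates left it short of the threshold (-0.25, adjusted p = 0.124). So did leaving out the libraries with the most epithelial transcripts (-0.39, adjusted p = 0.071). Pdgfrb and Zfp423 were the 2 of 10 markers whose 8 corticosterone libraries did not overlap the 8 HFD libraries either, where 12.8% of all genes tested separate in that way. Against chow, 4 of 10 markers separated by 8 libraries to 8 with corticosterone, where 23.2% of all genes did, and 0 of 10 with HFD, where 9.14% did.

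Among the 4 PDGF ligands the changes went in both directions. With corticosterone, Pdgfa and Pdgfc rose in control mice (log2 fold changes 0.59 ± 0.15 and 0.44 ± 0.15) and in FMRKO mice (0.60 ± 0.16 and 0.51 ± 0.15), with edgeR adjusted p between 0.004 and 0.025. Pdgfb, which endothelial cells release to hold mural cells at vessels, fell in control mice by 1.67-fold (adjusted p = 8.4e-04) and did not pass in FMRKO mice (-0.33 ± 0.16, adjusted p = 0.099). On HFD, Pdgfd rose in both genotypes (0.70 ± 0.18 and 0.89 ± 0.18, adjusted p = 0.005 and 8.9e-04) and Pdgfc fell in control mice (-0.42 ± 0.15, adjusted p = 0.044).

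Of the markers of DPP4-positive interstitial progenitors, Dpp4 had the largest corticosterone effect against chow of the 10 markers and Pi16 passed in no comparison. Dpp4, a membrane peptidase that cleaves incretins and chemokines, had 19.9, 42.7, 67.9 and 72.9 CPM in chow control libraries and 43.9, 37.0, 45.5 and 65.9 in chow FMRKO libraries. The corticosterone libraries were close together, at 13.9, 16.9, 15.9 and 15.5 CPM in control and 17.0, 16.3, 18.6 and 18.3 in FMRKO mice. All 8 lay under the chow range, whose lowest library was chow control 1. The log2 fold change was -1.71 ± 0.33 in control, a 3.26-fold lower level (adjusted p = 3.3e-04, edgeR), and -1.45 ± 0.33 in FMRKO mice, 2.73-fold lower (adjusted p = 0.002). On HFD the libraries had 24.5, 22.2, 38.9 and 40.6 CPM in control and 27.9, 18.5, 19.2 and 46.1 in FMRKO mice, overlapping chow and, in FMRKO mice, corticosterone. The HFD effects, -0.69 ± 0.32, adjusted p = 0.111 in control and -0.78 ± 0.32, adjusted p = 0.083 in FMRKO mice, did not pass. Without chow control 1 both did (-0.95, adjusted p = 0.013, and -0.78, adjusted p = 0.031, edgeR), and the FMRKO value also did without HFD FMRKO 4 (-1.13, adjusted p = 0.012) and without the 6 lymph node-rich libraries (-1.43, adjusted p = 0.028). With lymph node and muscle scores as covariates the control value was -1.12 (adjusted p = 0.009) and the FMRKO value -0.58 (adjusted p = 0.139). The control value did not pass with a block for replicate number (-0.44, adjusted p = 0.288) or without the lymph node-rich libraries (-0.70, adjusted p = 0.185). Without the muscle-rich libraries the FMRKO value did not pass (-0.59, adjusted p = 0.253). The gene Gm13561 lies over Dpp4 on the other strand and had at most 2.42% of its count.

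Pi16 varied widely within groups. Its CPM values were 43.9, 95.5, 187 and 172 in chow control and 76.1, 87.7, 95.2 and 191 in chow FMRKO libraries. With corticosterone they were 68.4, 113, 55.2 and 80.0 in control and 76.4, 45.4, 97.6 and 91.1 in FMRKO libraries, inside the chow range. The corticosterone effect was -0.66 ± 0.39, adjusted p = 0.177 in control mice, with a 95% interval of -1.46 to 0.15, and -0.53 ± 0.39, adjusted p = 0.278 in FMRKO mice. Without chow control 1, the lowest of its group, the control value was -0.94 and passed (adjusted p = 0.036, edgeR). It also passed with lymph node and muscle scores as covariates (-0.89, adjusted p = 0.033). It did not pass with a block for replicate number (-0.38, adjusted p = 0.489) or without the muscle-rich libraries (-0.88, adjusted p = 0.066). On HFD the fitted change was -0.11 ± 0.38 in control mice. In FMRKO mice it was -0.02 ± 0.38, and 0.36 ± 0.39 without chow FMRKO 5, the library with the highest Pi16 and the most muscle transcripts.

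Clec3b had 145, 205, 272 and 292 CPM in chow control libraries, 127, 168, 138 and 96.6 on HFD and 82.3, 105, 105 and 82.2 with corticosterone. The corticosterone control libraries were all below the chow control libraries, while HFD overlapped them at chow control 1. The log2 fold changes in control mice were -1.29 ± 0.22 with corticosterone (adjusted p = 8.4e-05, edgeR) and -0.79 ± 0.21 on HFD (adjusted p = 0.008). The HFD call did not hold without the 6 lymph node-rich libraries (-0.55, adjusted p = 0.127). In FMRKO mice Clec3b had 123, 169, 139 and 198 CPM on chow, 157, 173, 171 and 179 on HFD and 108, 68.5, 136 and 102 with corticosterone. These groups overlapped chow, with 0.11 ± 0.21, adjusted p = 0.746 on HFD and -0.61 ± 0.21, adjusted p = 0.028 with corticosterone. The latter call was lost without chow FMRKO 2 or 5 or corticosterone FMRKO 2 or 4 (adjusted p 0.056 to 0.096) and when the fit held its own 8 libraries alone (-0.60, adjusted p = 0.052) or left out the muscle-rich libraries (-0.48, adjusted p = 0.112).

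Among 14 other genes of the DPP4-positive state, 8 were lower and 1 was higher with corticosterone in control mice, and 5 were lower and 1 was higher in FMRKO mice. Wnt2, a secreted Wnt ligand, fell by 4.36-fold in control (adjusted p = 8.5e-04, edgeR) and 2.97-fold in FMRKO mice (adjusted p = 0.009). Bmp7, a bone morphogenetic protein, had log2 fold changes of -1.66 ± 0.42 and -1.66 ± 0.42 (adjusted p = 0.004 in each). Opcml, a cell adhesion protein, fell in both genotypes as well (-1.55 and -1.03), while the 1 gene that rose in each genotype was Sema3c, a secreted semaphorin, at 0.92 ± 0.25 in control (adjusted p = 0.006) and 1.17 ± 0.26 in FMRKO mice (adjusted p = 0.001). Its control value was chosen for naming after the values were seen. The list's median log2 fold change was -0.52 in control and -0.16 in FMRKO mice, against -0.12 and -0.11 over all genes. On HFD 6 of the 14 were lower and 1 higher in control mice, among them Wnt2 (-1.44 ± 0.44) and Opcml (-0.97 ± 0.29), and 1 was lower and 2 higher in FMRKO mice. Over all genes tested, 22.7% were lower and 20.2% higher with corticosterone in control mice, and 20.9% and 20.2% in FMRKO mice. For HFD these shares were 13.9% and 15.3% in control mice and 9.18% and 15.2% in FMRKO mice.

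Cd34 and Ly6a, surface proteins shared by progenitors and by endothelial cells, were both lower with corticosterone in control mice. Cd34, a sialomucin, had 64.7, 120.4, 119 and 170.3 CPM in chow control and 46.1, 72.6, 55.0 and 53.7 in corticosterone control libraries. The groups overlapped only at chow control 1. In FMRKO mice it had 59.0, 86.3, 72.9 and 120.0 CPM on chow and 45.1, 30.9, 61.2 and 52.2 with corticosterone, overlapping at chow FMRKO 1. The log2 fold changes were -1.06 ± 0.26 in control (adjusted p = 0.002, edgeR) and -0.83 ± 0.26 in FMRKO mice (adjusted p = 0.014). Without chow FMRKO 5 the FMRKO value did not pass (-0.62, adjusted p = 0.064), nor without both muscle-rich libraries (-0.62, adjusted p = 0.061). On HFD, Cd34 lay at 71.5 to 118 CPM in control and 91.7 to 111 in FMRKO libraries (-0.29 ± 0.25, adjusted p = 0.410 and 0.23 ± 0.25, adjusted p = 0.555). The gene Gm16897 on the other strand had 1.62% to 4.99% of the Cd34 count.

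Ly6a, a small lipid-anchored surface protein, had 85.8, 166, 149.6 and 161 CPM in chow control libraries and 61.7, 70.3, 58.7 and 90.2 with corticosterone, overlapping at chow control 1. The log2 fold change was -0.999 ± 0.297 (adjusted p = 0.010, edgeR). In FMRKO mice it had 90.7, 120.3, 74.6 and 124 CPM on chow and 67.04, 215, 77.1 and 83.3 with corticosterone, and 1 library, corticosterone FMRKO 2, was above all 23 others. The FMRKO effect of corticosterone was 0.11 ± 0.29, adjusted p = 0.790 with that library and -0.44 ± 0.22 (adjusted p = 0.117) without it. In the same library all 11 of a set of interferon-stimulated genes were at their highest of the 24 libraries, among them Gbp2 at 180 CPM (22 to 26 in the other corticosterone libraries) and Isg15 at 46.3 CPM (1.94 to 4.15). Their summed CPM was 128 to 171.9 in the other corticosterone libraries of both genotypes, below the 207.3 to 331.3 of the chow and HFD libraries. This set was chosen after the values were seen, and Ly6a is itself known as an interferon-responsive gene. The part of the set's signal in the Ly6a results of either genotype was not tested. On HFD Ly6a lay at 69.7 to 120.2 CPM in control libraries (-0.53 ± 0.29, adjusted p = 0.186) and at 98.6 to 116 in FMRKO libraries (0.10 ± 0.29, adjusted p = 0.842). Without corticosterone FMRKO 2 the HFD value in control mice was -0.56 and passed (adjusted p = 0.043).

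**Figure D2:**
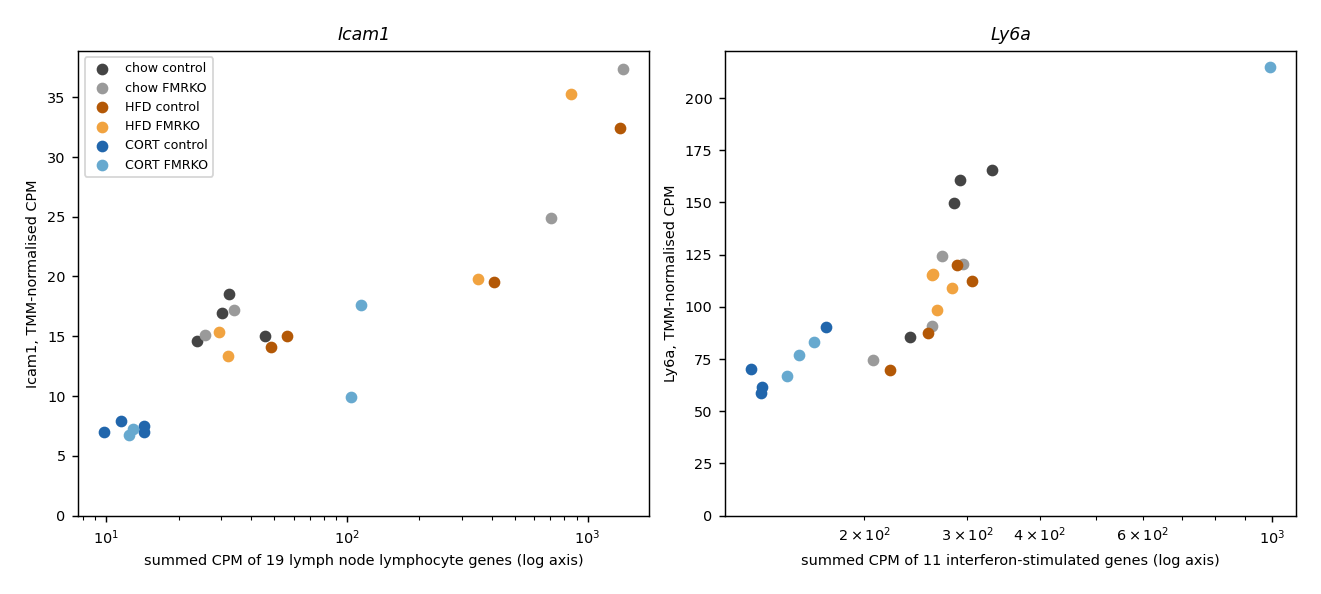
Left, Icam1 against the summed CPM of 19 lymphocyte genes; right, Ly6a against the summed CPM of 11 interferon-stimulated genes, in TMM-normalised CPM with log horizontal axes. Each point is a library, coloured by group (cort: corticosterone). The 6 libraries with 352 to 1400 lymphocyte CPM hold the highest Icam1 values, 19.5 to 37.4 CPM, and the library with the highest interferon sum holds the highest Ly6a, 215 CPM.

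Icam1, the adhesion molecule by which committed preadipocytes are sorted, was lower with corticosterone in both genotypes. Endothelial cells and leukocytes also make it. Its values were 14.6, 15.0, 16.9 and 18.6 CPM in chow control and 7.02, 7.45, 6.97 and 7.91 in corticosterone control libraries, with no overlap. In FMRKO mice they were 37.4, 15.1, 24.9 and 17.2 CPM on chow and 7.21, 17.6, 9.90 and 6.75 with corticosterone, where corticosterone FMRKO 2 was inside the chow range. The log2 fold changes were -1.15 ± 0.34 in control (adjusted p = 0.011, edgeR) and -1.20 ± 0.34 in FMRKO mice (adjusted p = 0.009). The FMRKO call was lost without chow FMRKO 1 (-0.86, adjusted p = 0.054). The 6 lymph node-rich libraries had 19.5 to 37.4 CPM of Icam1, above the 13.3 to 18.6 of the other 10 chow and HFD libraries, and 7 of the 8 corticosterone libraries, all but FMRKO 2, had 6.75 to 9.90. Without the 6 lymph node-rich libraries the FMRKO value was -0.60 (adjusted p = 0.100), and without the 3 libraries with the most epithelial transcripts it was -0.91 (adjusted p = 0.159). HFD had no call on Icam1, at 0.32 ± 0.34, adjusted p = 0.505 in control and -0.17 ± 0.34, adjusted p = 0.748 in FMRKO mice.

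Of 8 other genes linked to ICAM1-positive preadipocytes, 2 were higher and 3 lower with corticosterone in either genotype. The basement membrane collagens Col4a1 and Col4a2 were the ones that rose, Col4a2 by 1.02 ± 0.18 in control and 1.32 ± 0.18 in FMRKO mice on the log2 scale (adjusted p = 1.1e-04 and 1.0e-05, edgeR). Dlk1, the preadipocyte factor Pref-1, fell by 4.51-fold in control (adjusted p = 7.8e-04) and had a log2 fold change of -1.32 ± 0.45 in FMRKO mice (adjusted p = 0.024). Its level was low, at 1.79 ± 0.42 CPM (SD, n = 4) in chow control libraries. On HFD Col4a2 was higher in both genotypes (0.73 ± 0.17 and 0.90 ± 0.17) and Dlk1 was lower in control mice (-1.63 ± 0.45, adjusted p = 0.009). These were the 1 higher and 1 lower of 8 in control mice, while in FMRKO mice 4 of 8 were higher (Col4a2, Col4a1, Col15a1 and Sparcl1) and 0 lower. The shares of all genes with corticosterone were 20.2% higher and 22.7% lower in control mice, and 20.2% and 20.9% in FMRKO mice. For HFD they were 15.3% higher and 13.9% lower in control mice, and 15.2% and 9.18% in FMRKO mice.

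Zfp423 rose with corticosterone in both genotypes, as F3 did, and unlike the markers that fell. It had 110.2, 62.1, 98.7 and 107 CPM in chow control and 51.3, 101, 81.9 and 87.4 in chow FMRKO libraries. With corticosterone it had 211, 199.7, 197 and 192 CPM in control and 211, 185, 173 and 198 in FMRKO libraries, all 8 above all chow and all HFD libraries. The increase was 2.12-fold in control (1.08 ± 0.19, adjusted p = 1.5e-04, edgeR) and 2.39-fold in FMRKO mice (1.26 ± 0.19, adjusted p = 4.3e-05). HFD libraries had 127, 141, 157 and 101 CPM in control and 137, 149, 139 and 93.3 in FMRKO mice, overlapping chow. The HFD effect passed in FMRKO mice (0.69 ± 0.19, adjusted p = 0.011) but not in control mice (0.48 ± 0.19, adjusted p = 0.063). The control value passed without chow control 1, chow FMRKO 1, HFD control 4 or HFD FMRKO 4 (adjusted p 0.027 to 0.048), without the 6 lymph node-rich libraries (0.69, adjusted p = 0.004) and with lymph node and muscle scores as covariates (0.76, adjusted p = 0.001). It did not pass without the muscle-rich (0.38, edgeR adjusted p = 0.193) or epithelium-rich libraries (0.48, 0.092). A block for replicate number left it short too (0.51, 0.151). The FMRKO value did not pass when the fit held its own 8 libraries alone (0.64, adjusted p = 0.067). Between corticosterone and HFD the difference was 0.60 ± 0.19, adjusted p = 0.025 in control and 0.57 ± 0.19, adjusted p = 0.047 in FMRKO mice.

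The factors known to act with or around Zfp423 did not move together. With corticosterone, Ebf1, an early B-cell factor that ZFP423 binds, rose in control (0.73 ± 0.11, adjusted p = 1.7e-05, edgeR) and FMRKO mice (0.76 ± 0.11, adjusted p = 1.6e-05). Bmp4, an inducer of preadipocyte commitment, fell by 3.16-fold in control (adjusted p = 1.1e-04) and 2.89-fold in FMRKO mice (adjusted p = 3.1e-04). Zfp521, a close relative of Zfp423 that restrains adipogenesis, fell as well (-1.16 and -0.66), and Ccn5, an inhibitor of Zfp423 entry to the nucleus, rose in FMRKO mice (0.85 ± 0.29, adjusted p = 0.024). Of the 9 genes on this list 1 was higher and 2 lower in control mice, and 4 were higher and 2 lower in FMRKO mice. HFD gave a different picture for Ebf1, which fell in both genotypes (-0.44 ± 0.11 and -0.35 ± 0.10), as did Ebf2 (-0.96 ± 0.17 and -0.53 ± 0.17), with edgeR adjusted p between 3.4e-04 and 0.028. In all, 3 of the 9 were lower on HFD in control mice and 2 in FMRKO mice, and 0 were higher. Over all genes tested, corticosterone had 20.2% higher and 22.7% lower in control mice, and 20.2% and 20.9% in FMRKO mice. For HFD it was 15.3% higher and 13.9% lower in control mice, and 15.2% and 9.18% in FMRKO mice.

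F3, the membrane receptor that starts coagulation and marks CD142-positive stromal cells, showed the smallest changes that passed. It had 45.0, 38.5, 34.4 and 32.2 CPM in chow control and 53.5, 57.1, 44.7 and 52.8 in corticosterone control libraries, overlapping at chow control 1. In FMRKO mice it had 22.9, 41.3, 30.8 and 35.0 CPM on chow and 43.8, 48.2, 42.2 and 47.5 with corticosterone, with no overlap. The increase was 1.39-fold in control (0.47 ± 0.17, adjusted p = 0.026, edgeR) and 0.48 ± 0.17 in FMRKO mice (log2, adjusted p = 0.024). The control call was lost without chow control 4 or 5 or corticosterone control 2 or 4 (adjusted p 0.051 to 0.084), and the FMRKO call without chow FMRKO 1 or 3 or corticosterone FMRKO 4 (0.055 to 0.077). Without the 6 lymph node-rich libraries the FMRKO value was 0.30 (adjusted p = 0.105), and without the 3 libraries with the most epithelial transcripts it was 0.48 (adjusted p = 0.136). With lymph node and muscle scores as covariates it was 0.28 (adjusted p = 0.124). Without the 2 libraries with the most muscle transcripts the control value was 0.42 (adjusted p = 0.079). HFD libraries held 37.2 to 58.4 CPM in control and 35.2 to 50.4 in FMRKO mice, with 0.28 ± 0.17, adjusted p = 0.209 and 0.39 ± 0.17, adjusted p = 0.091. The FMRKO value on HFD passed without chow FMRKO 2 or HFD FMRKO 4 (adjusted p 0.028 to 0.050). It also passed with the covariates (0.36, adjusted p = 0.033). The control value on HFD passed without the 6 lymph node-rich libraries (0.55, adjusted p = 0.005) and with the covariates (0.53, adjusted p = 0.004). It did not pass without the muscle-rich (0.24, edgeR adjusted p = 0.351) or epithelium-rich libraries (0.28, 0.255). A block for replicate number also left it short (0.22, 0.421). The FMRKO value on HFD did not pass without the lymph node-rich (0.36, 0.112), muscle-rich (0.43, 0.119) or epithelium-rich libraries (0.37, 0.206), or with the block (0.48, 0.068).

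Other genes of CD142-positive cells were split. Fmo2, a flavin monooxygenase, rose 3.75-fold with corticosterone in control (adjusted p = 5.0e-05, edgeR) and 5.19-fold in FMRKO mice (adjusted p = 7.3e-06). Clec11a, a secreted lectin, fell in both (-1.09 ± 0.22 and -0.79 ± 0.22). Of 9 such genes 2 were higher and 3 lower in control mice, and 3 were higher and 2 lower in FMRKO mice. On HFD the small proteoglycan Bgn rose in control (0.80 ± 0.24) and FMRKO mice (1.75 ± 0.25), with 2 of 9 higher and 1 lower in control and 3 of 9 higher in FMRKO mice. The shares of all genes with corticosterone were 20.2% higher and 22.7% lower in control mice, and 20.2% and 20.9% in FMRKO mice. For HFD they were 15.3% higher and 13.9% lower in control mice, and 15.2% and 9.18% in FMRKO mice.

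**Figure D3:**
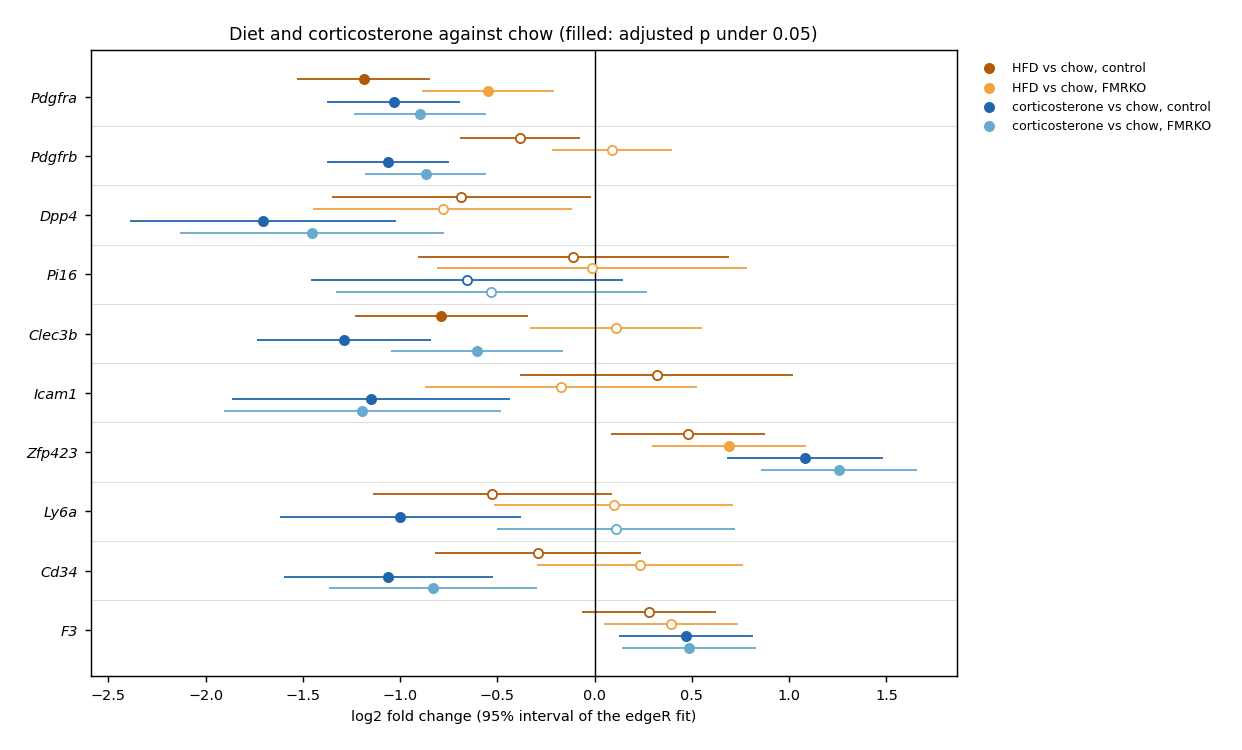
Log2 fold changes against chow (horizontal axis) of the 10 markers with the 95% interval of the edgeR fit, for HFD and corticosterone in each genotype. Filled points passed an adjusted p of 0.05. In control mice corticosterone gave filled points below 0 for 7 markers and above 0 for Zfp423 and F3.

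Set against HFD, corticosterone had 5 of 10 markers past the threshold in control mice, where 24.9% of all genes tested passed (14.2% lower, 10.6% higher), and 5 of 10 in FMRKO mice, where 15.8% did (8.49% lower, 7.27% higher). The libraries did not overlap for 4 of 10 in control mice (Pdgfrb, Dpp4, Icam1 and Zfp423), where 27.8% of all genes did not, and for 4 of 10 in FMRKO mice (Pdgfrb, Clec3b, Cd34 and Zfp423), where 24.9% did not. In control mice Pdgfrb (-0.68 ± 0.15), Dpp4 (-1.02 ± 0.32), Icam1 (-1.47 ± 0.35) and Cd34 (-0.77 ± 0.26) were lower and Zfp423 was higher, with edgeR adjusted p between 0.003 and 0.032. In FMRKO mice Pdgfrb (-0.96 ± 0.15), Clec3b (-0.72 ± 0.21), Icam1 (-1.02 ± 0.34) and Cd34 (-1.06 ± 0.26) were lower and Zfp423 was higher (adjusted p 1.6e-04 to 0.047). The control values that did not pass were 0.15 for Pdgfra, -0.55 for Pi16, -0.50 for Clec3b, -0.47 for Ly6a and 0.19 for F3 (adjusted p 0.090 to 0.515). The FMRKO values that did not pass were -0.35 for Pdgfra, -0.67 for Dpp4, -0.52 for Pi16, 0.01 for Ly6a and 0.09 for F3 (adjusted p 0.150 to 0.984). The calls on Pdgfrb in both genotypes and on Cd34 in FMRKO mice held in every alternative run. Single libraries decided others. In control mice Cd34 was lost without any 1 of 5 libraries (HFD control 2 or 3, corticosterone control 1, 3 or 4; adjusted p 0.069 to 0.110), Dpp4 without any 1 of 5 (HFD control 3 or 4, corticosterone control 1, 3 or 4; 0.052 to 0.087) and Zfp423 in control mice without HFD control 4 (0.49, adjusted p = 0.094). In FMRKO mice Clec3b was lost without any 1 of 4 libraries (HFD FMRKO 2 or 4, corticosterone FMRKO 2 or 4; 0.051 to 0.097) and Zfp423 without any 1 of 12 (chow control 4 or 5, chow FMRKO 3 or 5, HFD FMRKO 1 or 4, corticosterone control 2, 3 or 4, corticosterone FMRKO 1, 3 or 4; 0.050 to 0.159). Icam1 in FMRKO mice was lost in 17 of the 24 fits that left out 1 library (0.051 to 0.234), all but those without chow FMRKO 1, 2 or 5, HFD control 4, HFD FMRKO 2 or 3, or corticosterone FMRKO 2. Without the 6 lymph node-rich libraries Icam1 in FMRKO mice was -0.45 (adjusted p = 0.331) and Clec3b -0.70 (0.075), and in control mice Zfp423 was 0.44 (0.088) and Dpp4 -0.95 (0.086). Zfp423 in FMRKO mice was 0.44 (0.100) without those libraries, 0.37 (0.104) with lymph node and muscle covariates, 0.57 (0.060) without the muscle-rich and 0.61 (0.135) without the epithelium-rich libraries. Icam1 in FMRKO mice was -1.02 (0.056) without the muscle-rich and -0.76 (0.328) without the epithelium-rich libraries, and Dpp4 in control mice -0.95 (0.084) without the muscle-rich ones. With lymph node and muscle scores as covariates, Icam1 in control mice was -0.36 (adjusted p = 0.223), Zfp423 0.17 (0.597) and Dpp4 -0.55 (0.327), and Clec3b was called at -0.73 (0.040).

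Genes of other cells and of the matrix moved with corticosterone too. Of 12 fibroblast matrix genes 9 were lower and 2 higher in control mice, and 6 lower and 3 higher in FMRKO mice. The collagen chain Col1a2 fell by 4.01-fold in control (adjusted p = 8.8e-05, edgeR) and 2.10-fold in FMRKO mice (adjusted p = 0.014), while Lox, the lysyl oxidase that crosslinks collagen, rose 4.35-fold and 4.75-fold (adjusted p = 1.1e-06 and 8.0e-07). Of 10 endothelial genes, 9 were lower in control mice, with a summed CPM of 559 to 648 against 940 to 1170 on chow, and 5 were lower and 1 higher in FMRKO mice, at 573 to 734 against 696 to 931. Vwf, von Willebrand factor, had log2 fold changes of -1.34 ± 0.20 and -0.71 ± 0.19. Of 10 mural genes, 6 were lower and 1 higher in control mice, at a summed 421 to 790 CPM against 654 to 1007, and 5 lower and 1 higher in FMRKO mice, at 431 to 693 against 585 to 1077. All 10 endothelial and all 10 mural genes passed the low-count filter. Pdgfrb, Cd34, Ly6a and Icam1 are also made by vessel cells, and the part of these cells in the results on those markers was not tested. Of 8 fat cell genes, 4 were higher and 1 lower in each genotype, among them Lep, which encodes leptin (4.00 ± 0.30 and 4.27 ± 0.30), and the 1 lower, Cfd, adipsin (-3.45 ± 0.35 and -2.68 ± 0.34). Over all genes tested, 22.7% were lower and 20.2% higher in control mice, and 20.9% and 20.2% in FMRKO mice.

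On HFD the vessel genes that passed were higher. Of 10 endothelial genes, 3 were higher and 0 lower in control mice (1057 to 1347 summed CPM) and 5 higher and 0 lower in FMRKO mice (867 to 1445), led by Cldn5, a tight junction protein (1.14 ± 0.24 and 1.77 ± 0.24). Of 10 mural genes, 1 was higher in each genotype, Acta2 (0.97 ± 0.34 and 1.35 ± 0.34). The matrix list had 2 higher and 2 lower of 12 in control mice and 4 higher and 0 lower in FMRKO mice, with Lox higher in both (1.37 ± 0.23 and 1.29 ± 0.23) and Col1a1 lower in control mice (-1.19 ± 0.40). Lymphocyte genes were higher for 16 of 19 in HFD control against chow control, where 2 of the 4 HFD control libraries and 0 of the 4 chow control libraries were lymph node-rich. In FMRKO mice 0 of 19 passed on HFD. Over all genes tested, HFD had 13.9% lower and 15.3% higher in control mice, and 9.18% and 15.2% in FMRKO mice.

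The remaining lists held cells that a pad can also contain. Of 11 macrophage genes, 6 were higher with corticosterone in FMRKO mice (1117 to 1618 summed CPM, against 661 to 871 on chow), while in control mice 2 were lower, and on HFD 2 were lower in control and 0 passed in FMRKO mice. Of 6 Schwann cell genes, 6 were lower on HFD in control mice and 1 in FMRKO mice, and 4 and 5 were lower with corticosterone. Of 16 skeletal muscle genes tested, 14 were lower with corticosterone and 13 on HFD in FMRKO mice, whose chow group holds the muscle-rich library, and in control mice 2 were higher with corticosterone. Of 19 lymphocyte genes, 10 were lower with corticosterone in FMRKO mice and 0 passed in control mice. Their summed CPM in control mice was nonetheless 9.82 to 14.4 with corticosterone against 23.8 to 45.5 on chow, with no overlap. The test drew its spread from all 6 groups, which include the lymph node-rich libraries. Of 12 epithelial genes 1, Trp63, was lower with either treatment in control mice. Of 4 lymph node stroma genes tested, 1 was higher with either treatment in control mice, Glycam1 on HFD and Cxcl13 with corticosterone. Of 2 mesothelial genes tested 1, Lrrn4, was lower with corticosterone in both genotypes and on HFD in control mice. Of all genes tested, 42.9% passed in either direction with corticosterone in control mice and 41.1% in FMRKO mice. For HFD the shares were 29.2% and 24.4%.

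**Figure D4:**
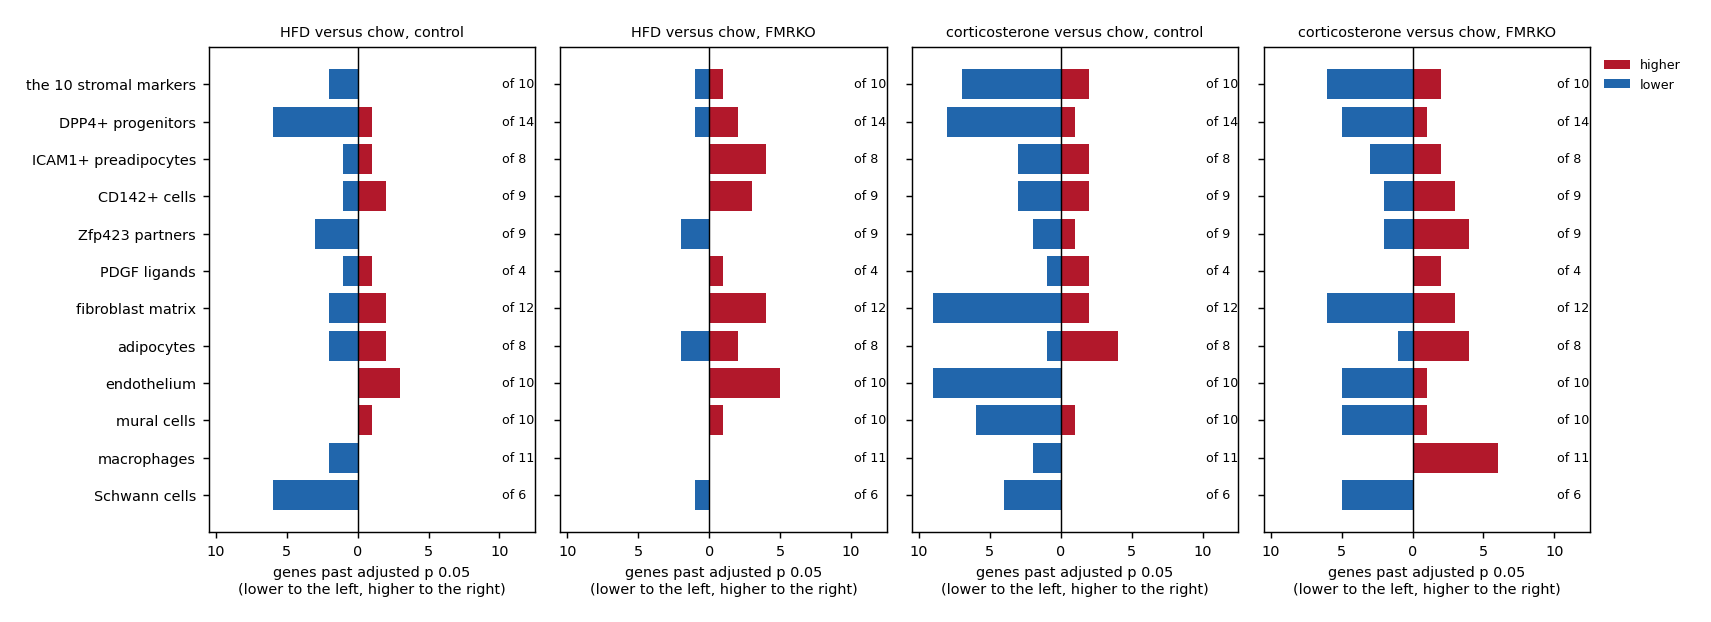
Number of genes of each list past an edgeR adjusted p of 0.05, lower to the left and higher to the right, in the 4 comparisons with chow, with the number tested at the right. With corticosterone in control mice, 7 of the 10 stromal markers, 9 of 12 fibroblast matrix genes and 9 of 10 endothelial genes were lower. Of all genes tested, 22.7% were lower in that comparison.

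Between genotypes, none of the 10 markers passed in edgeR in any condition, and very few genes did overall: 0.0101% on chow, 0.0101% on HFD and 0.00507% with corticosterone, and 0.0355% for the mean of the 3 conditions. At an unadjusted p under 0.05 there were 1 marker on chow (Clec3b), 1 on HFD (Pdgfra), 1 with corticosterone (Ly6a) and 0 for the mean, and DESeq2 called 0 markers in each. Among all genes, 2353, 781, 843 and 1315 had an unadjusted p under 0.05 in these comparisons. On chow Clec3b was at 157 ± 32.9 CPM in FMRKO and 228 ± 67.1 in control mice (SD, n = 4), with overlapping libraries and -0.54 ± 0.21, adjusted p = 0.326. On HFD Pdgfra was at 112 ± 20.2 CPM in FMRKO and 79.3 ± 11.1 in control mice, overlapping in 1 library, with 0.49 ± 0.16, adjusted p = 1.000. With corticosterone Ly6a had 0.65 ± 0.30, adjusted p = 1.000 with the interferon-rich library FMRKO 2, and 0.10 ± 0.22 (adjusted p = 1.0) without it. The log2 fold changes of the other markers on chow were -0.15 for Pdgfra, -0.27 for Pdgfrb, -0.08 for Dpp4, -0.15 for Pi16, 0.54 for Icam1, -0.24 for Zfp423, -0.45 for Ly6a, -0.49 for Cd34 and -0.21 for F3 (adjusted p 0.463 to 0.944). On HFD they were 0.21 for Pdgfrb, -0.17 for Dpp4, -0.06 for Pi16, 0.36 for Clec3b, 0.05 for Icam1, -0.02 for Zfp423, 0.17 for Ly6a, 0.03 for Cd34 and -0.10 for F3, each with an adjusted p of 1.000. With corticosterone they were -0.01 for Pdgfra, -0.07 for Pdgfrb, 0.17 for Dpp4, -0.03 for Pi16, 0.15 for Clec3b, 0.49 for Icam1, -0.06 for Zfp423, -0.26 for Cd34 and -0.20 for F3, each with an adjusted p of 1.000. All 10 markers overlapped between genotypes in each condition. The 95% intervals within a condition were, for example, -0.35 to 0.33 for Pdgfra and -0.50 to 0.84 for Dpp4 with corticosterone. For the mean over the 3 conditions the log2 fold changes were 0.11 for Pdgfra, -0.04 for Pdgfrb, -0.03 for Dpp4, -0.08 for Pi16, -0.01 for Clec3b, 0.36 for Icam1, -0.11 for Zfp423, 0.12 for Ly6a, -0.24 for Cd34 and -0.17 for F3 (adjusted p 0.793 to 0.993). None of the genes on the 16 companion lists passed between genotypes in edgeR.

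The response to treatment was not shown to differ between genotypes for any of the 10. In the test of the difference of the FMRKO effect, 0 of 10 markers passed for HFD and 0 of 10 for corticosterone, where 0% of all genes did in edgeR. At an unadjusted p under 0.05 there were 3 markers for HFD (Pdgfra, Pdgfrb and Clec3b) and 2 for corticosterone (Clec3b and Ly6a), among 1939 and 1171 genes, and DESeq2 called 0 markers, and 6 and 4 genes. For HFD the differences were 0.90 ± 0.30, adjusted p = 0.481 for Clec3b, 0.64 ± 0.23, adjusted p = 0.481 for Pdgfra and 0.47 ± 0.21, adjusted p = 0.498 for Pdgfrb. For each of these 3 the fitted HFD change was lower in control than in FMRKO mice. For corticosterone the difference was 0.68 ± 0.30, adjusted p = 0.814 for Clec3b and 1.11 ± 0.42, adjusted p = 0.748 for Ly6a. Without corticosterone FMRKO 2 that of Ly6a was 0.54 ± 0.30 (adjusted p = 0.925). The differences of the other markers for HFD were -0.09 for Dpp4, 0.09 for Pi16, -0.49 for Icam1, 0.21 for Zfp423, 0.62 for Ly6a, 0.52 for Cd34 and 0.11 for F3 (adjusted p 0.607 to 0.967). For corticosterone they were 0.13 for Pdgfra, 0.19 for Pdgfrb, 0.26 for Dpp4, 0.12 for Pi16, -0.04 for Icam1, 0.18 for Zfp423, 0.23 for Cd34 and 0.01 for F3 (adjusted p 0.969 to 1.000).

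**Figure D5:**
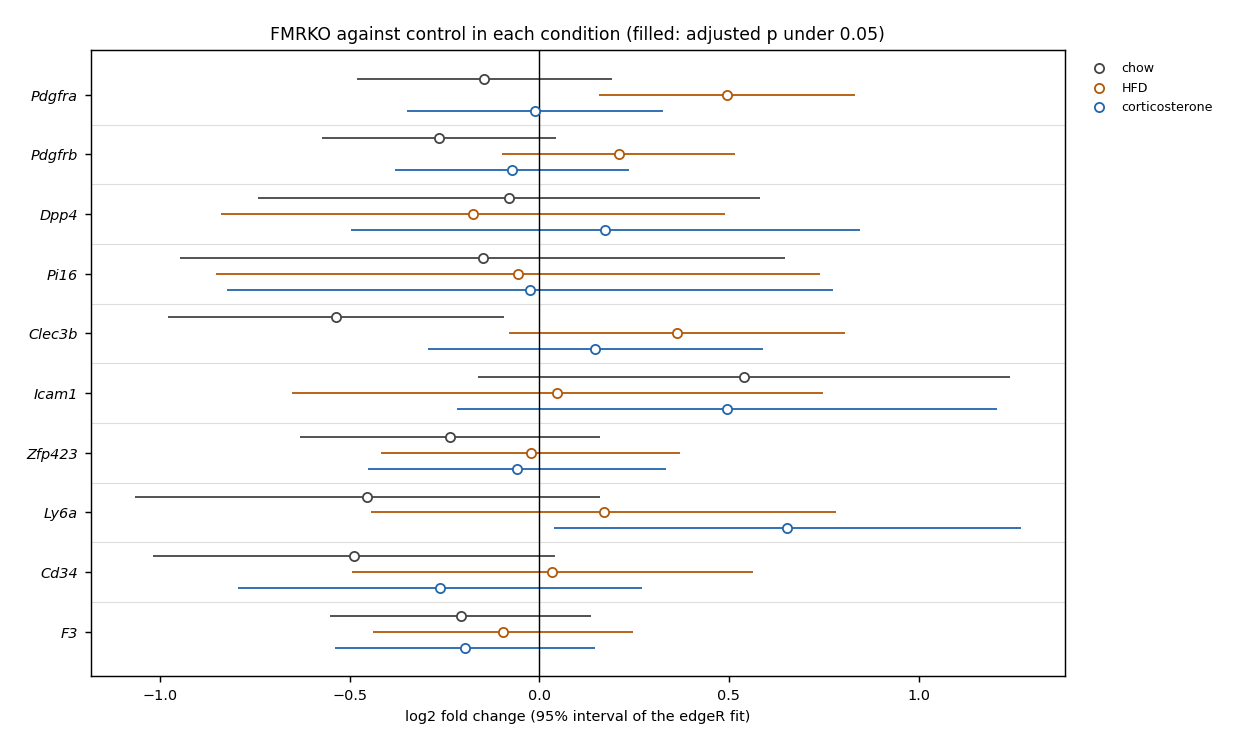
Log2 fold changes of FMRKO against control (horizontal axis) for the 10 markers in each condition, with the 95% interval of the edgeR fit. Open points did not pass an adjusted p of 0.05; all 30 are open.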

How the data were processed

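Total RNA of inguinal fat was extracted with TRIzol and a column and depleted of ribosomal RNA, per the labels' protocols. STAR 2.5.1a, featureCounts 1.4.6p-5 and the build GRCm38 are named by the submitters' processing notes. No source read here gives the annotation release or the strand setting. The authors deposited raw read counts per gene, with CPM and RPKM, for 41388 genes in 24 libraries (17925109 to 40427675 counts in all). The deposited CPM and RPKM could be recomputed from the counts, and only counts were tested. Symbols were matched for 97.3% of genes. Replicates differed by more than sampling noise in all 36 pairs (lowest chi-square per degree of freedom 12.6).

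Genes passing filterByExpr (minimum count 10) were TMM-normalised and fitted in 1 model of 6 groups with edgeR 4.0.16 in R 4.3.3 (glmQLFit, glmQLFTest; 18 residual degrees of freedom). The 12 comparisons were each Benjamini-Hochberg adjusted over 19717 genes at 0.05, two-sided. SE is the log2 fold change over the square root of F. DESeq2 1.42.0, DESeq2 size factors, no low-count filter, only the groups compared, a replicate block and leaving out single libraries were the alternatives. Covariates of lymph node and muscle signal and the removal of libraries rich in lymph node, muscle or epithelial transcripts were added after the data were seen.

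The 10 members and the 16 other lists were chosen with earlier results of these data known. All members are named in each comparison, and from another list at most 4 genes, those with the largest change among those past the threshold. Same-numbered libraries deviated together in every pair only between the genotypes on HFD (correlations 0.20, 0.55, 0.55 and 0.72). The reported tests were not paired, on HFD or elsewhere. A block for replicate number was used only as an alternative, and in every comparison. The labels do not say what the numbers mark.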

Additional observations from a re-analysis of the deposited data

Results flagged for a closer look

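In 4 of 60 groups of 4 libraries (10 members in 6 groups), the highest or lowest library stood apart from the other 3 by Dixon's criterion, which chance meets in about 1 in 20 groups. Pdgfra was lowest in chow control 1, at 128 CPM, with the next library at 194 and the highest at 206. Pdgfrb was lowest in corticosterone FMRKO 2, at 54.8 CPM, where the others had 74.2 to 77.3. Ly6a was highest in the same library, at 215 CPM, where the next had 83.3. Pi16 was highest in chow FMRKO 5, at 191 CPM, where the next had 95.2, and that library also had the highest summed CPM of skeletal muscle genes.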

How the results depend on the processing

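Of 120 member results (10 members in 12 comparisons), 31 passed the threshold. Across the 9 other settings and the 24 fits that each leave out 1 library, 0 of the 31 changed sign, 15 passed in every setting and 16 did not in at least 1. Of the 89 others, 9 passed in at least 1 setting and 48 changed sign in at least 1. Where a count moved, the cause was not tested. Leaving out 1 library moved the genes called between 4353 and 5974 for HFD against chow in control and 3351 and 5186 in FMRKO mice, 7086 and 8812, and 6828 and 8589, for corticosterone against chow, and 3325 and 5671, and 2353 and 3489, for corticosterone against HFD. Members called ranged from 2 to 4, 1 to 4, 8 to 10, 6 to 8, 3 to 5 and 2 to 5 in the same order. Genes called between genotypes ranged from 1 to 19 on chow, 2 to 3 on HFD, 1 to 3 with corticosterone and 5 to 10 for the mean.

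With only the groups compared, 3459 genes passed for HFD against chow in control and 3202 (1 member) in FMRKO mice, and 1, 1 and 2 genes between genotypes on chow, HFD and corticosterone. A replicate block was run in every comparison, while the hint of pairing in the data covered only the genotypes on HFD. With the block, 3426 genes passed for HFD against chow in control mice, and 3 members for corticosterone against HFD in FMRKO mice. Between genotypes, 1 and 6 genes passed on chow and HFD. The block ended the calls on Clec3b with HFD (-0.68), and on Icam1 (adjusted p = 0.087, edgeR) and F3 (0.42) with corticosterone, in control mice, on Clec3b with corticosterone in FMRKO mice (-0.51), and, against HFD, on Zfp423 in control (0.61) and FMRKO mice (0.59) and Icam1 in FMRKO mice (-0.93), while Pdgfrb with HFD in control mice passed (-0.44). With lymph node and muscle covariates, 5 members (6607 genes) passed for HFD against chow and 3 (3187 genes) for corticosterone against HFD, in control mice. Without the lymph node-rich libraries, corticosterone against HFD had 3217 genes and 3 members in control and 2 members in FMRKO mice, and genotype 1, 1 and 4 genes on chow, HFD and the mean. Without the muscle-rich libraries these were 3 members (FMRKO mice) and 4 genes (mean). Without the epithelium-rich libraries, 4560 genes passed for corticosterone against chow and 1757 (3 members) against HFD in FMRKO mice, and 1 and 3 genes between genotypes on chow and the mean. DESeq2 called 4 members (6457 genes) for HFD against chow in control mice, 71, 12, 6 and 34 genes between genotypes on chow, HFD, corticosterone and the mean, and 6 and 4 genes for the differences of the FMRKO effect. Icam1 and Dpp4 were the least abundant markers per unit length, but the tests used counts. In CPM, Icam1 was the lowest on chow, at a mean of 16.3 in control and 23.6 in FMRKO mice. F3 was next (37.5 and 32.5), below Dpp4 (50.9 and 48.1).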

Other observations

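Library chow control 1 was the lowest of its group for 7 of the 10 markers (Pdgfra, Dpp4, Pi16, Clec3b, Icam1, Ly6a and Cd34) and the highest for Zfp423 and F3, a pattern noticed after the values were seen. In the same library the summed CPM of the 12 fibroblast matrix genes was 7872, against 13230 to 22790 in the other 3 chow control libraries. The 11 macrophage genes summed to 483.7 CPM there, against 1021 to 1638, and the 8 fat cell genes to 35740, against 20010 to 31350.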
